A study of Mus musculus with 192 samples.

Results

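Brain transcript levels at about 400 days (T3) were set against those at about 100 days (T1) in the midbrain of homozygous (HOM) L44 mice, using every T1 and T3 HOM midbrain pool and taking time of collection into account. These are 10 of the 192 pools of the series, 4 at T1 and 6 at T3, made from 18 mice. L44 mice are FVB/n mice that carry tripro-hA, a soluble form of human amylin with proline substitutions, under the rat insulin 2 promoter, which is used to drive a transgene in pancreatic β-cells; transgene transcript in the brain was not tested here. The mice used here were male. At T1 the HOM mice were 99 to 101 days old and prediabetic; T2 was the onset of diabetes, at 100 to 246 days; at T3 they were 400 to 407 days old and normoglycaemic, and were thus the animals that had survived to that age. All T3 HOM pools but 1 (pool 6, a single mouse) came from mice labelled as previously diabetic. Nontransgenic (NON) mice bred from hemizygous parents were the controls, with 5 midbrain pools at T1 and 6 at T3; 3 of the T3 NON pools were also labelled as previously diabetic. A pool held RNA of 2 mice in equal amounts or of 1 mouse, taken in the morning (AM) or afternoon (PM). The T1 HOM group had 2 AM and 2 PM pools, the T3 HOM group had 5 AM pools and 1 PM pool. The legend of the paper's expression figure gives 3 AM HOM and 2 AM NON samples at T3. The sample labels, used here, give 5 and 3 AM midbrain pools. The tissue called midbrain also contained the forebrain and hypothalamus. T1 and T3 were different animals, and time point, age, past diabetes and survival cannot be told apart in this comparison.

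Amylin and insulin are released together from the β-cell and, with leptin from fat, act on the brain to limit food intake. The amylin receptor is the calcitonin receptor (Calcr) paired with a receptor activity-modifying protein (Ramp). Insulin acts through its receptor (Ir), the insulin receptor substrates, phosphoinositide 3-kinase and Akt; leptin acts through the long form of its receptor (Lepr-b), the kinase Jak2 and the transcription factor Stat3, and is opposed by Socs3 and by the phosphatase Ptp1b. In the hypothalamus, Pomc and Cart neurons suppress feeding, whereas Agrp and Npy neurons promote it.

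Counts of 43 target probes and 3 reference genes were made with the nCounter system, which counts single transcripts by barcoded probes without amplification. The target counts of a pool summed to between 172024 and 237824 at T1 and between 232405 and 310814 at T3. Levels are given as normalised counts, that is, the count divided by the geometric mean of the reference genes of the same pool and multiplied by the mean of that value over the 49 midbrain pools. A gene was called changed where edgeR's quasi-likelihood test gave an adjusted p under 0.05 (Benjamini-Hochberg, 43 probes). The log2 fold-changes are adjusted for time of collection, and can therefore depart from the ratio of plain group means. In tissue RNA, fewer cells of a type and less RNA per cell cannot be told apart.

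The block held hypothalamus. Mch, the feeding peptide of the lateral hypothalamus, was at 98082 counts in every 1000000 target counts (median of the 10 HOM midbrain pools), while the cortex of HOM mice at T1 and T3 had medians of 330.5 (left) and 403 (right). Hcrt, which encodes the orexins, stood at 3051 on this scale in midbrain against 95.8 and 96.0 in the cortices. Pomc was at 1336, Hdc, the histamine-forming enzyme, at 1052 and Agrp at 426, and none of these 5 genes was at or under background in a midbrain pool. Background was set in each pool at 2 SD above the mean of its negative controls. The summed normalised count of the 5 genes, in which Mch is the most abundant, was 25992 ± 2843 (SD, n = 4) at T1 and 23645 ± 2660 (SD, n = 6) at T3. The pools of the 2 time points overlapped, from 23148 to 28983 and from 20513 to 27464, and the part of hypothalamus content in the results below was not tested. Mch alone averaged 24577 at T1 and 22219 at T3, so the sum is close to a reading of Mch and says little about the other genes.

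Of the reference genes themselves, B2m, the light chain of MHC class I molecules, was higher at T3 relative to the other 2. Its count divided by the geometric mean of the other 2 reference genes was 8.66 and 8.61 in the T1 AM pools and 8.99 and 9.72 in the T1 PM pools. At T3 the ratio ran from 9.45 to 14.2 with a median of 10.4; the highest value was that of the only PM pool and the lowest that of pool 6. The mean ratio was 9.00 ± 0.51 (SD, n = 4) at T1 and 11.1 ± 1.73 (SD, n = 6) at T3, a 1.22-fold difference with some overlap (two-sided exact permutation test over 210 regroupings, p = 0.0333, adjusted p = 0.0333 over 4 measures). The exact permutation p was above 0.05 in 3 of the 10 comparisons that left out a pool, those without T1 pool 1/5 (p = 0.0714), T1 pool 3/4 (p = 0.0833) or T1 pool 6/7 (p = 0.0833), where the difference was still 0.26 to 0.29 on the log2 scale. The NON pools gave 9.03 ± 0.40 (SD, n = 5) at T1 and 12.2 ± 1.92 (SD, n = 6) at T3, and here the groups did not overlap, with 8.61 to 9.54 at T1 and 10.8 to 16.1 at T3. HOM pools at T2 were at 9.30 ± 0.60 (SD, n = 5), from 8.43 to 10.0.

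B2m is a known target of interferon signalling, and its proximal promoter is shown because the gene sets the scale of the comparison. The 250 bases before its start, from RefSeq (GRCm38.p6, chr2:122147437-122147686, + strand, written 5′ to 3′), hold 1 match to the interferon-stimulated response element (GAAA, any 2 bases, GAAA), in capitals, which begins 139 bases before the start.
B2m: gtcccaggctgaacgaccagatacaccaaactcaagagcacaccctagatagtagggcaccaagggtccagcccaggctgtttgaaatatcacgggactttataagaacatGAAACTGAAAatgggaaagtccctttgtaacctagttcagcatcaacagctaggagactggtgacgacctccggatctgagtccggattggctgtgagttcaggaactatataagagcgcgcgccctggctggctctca
On either strand this motif occurs in 2.98% of 32851 mouse promoters of the same length. The match describes the sequence only; no binding was measured.

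**Figure D1:**
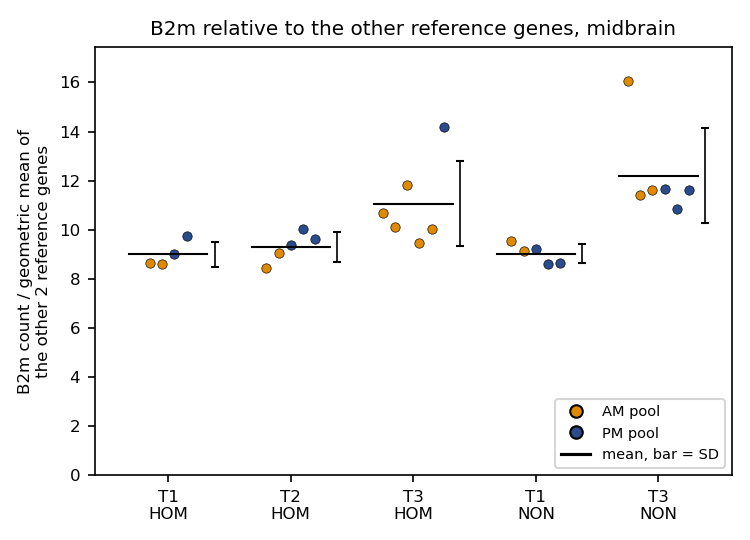
B2m count over the geometric mean of the other 2 reference genes in each midbrain pool (vertical axis, a ratio without unit) for HOM mice at T1, T2 and T3 and NON mice at T1 and T3. Points are pools coloured by time of collection, lines are means and bars SD; T3 means of 11.1 in HOM and 12.2 in NON stand above T1 means of 9.00 and 9.03.

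Because B2m is 1 of the 3 genes of the divisor, its higher ratio at T3 lowers the normalised count of each target there; the ratio shows unequal change and not which of the 3 genes changed. With all 3 reference genes the median log2 fold-change of the 43 targets was -0.14, and 35 were negative; with B2m left out the median was -0.01, and 23 were negative. The yields also differed. The reference genes, as a geometric mean, were 1.47-fold higher at T3 (exact permutation test, p = 0.00476, the smallest that 210 regroupings allow, adjusted p = 0.019), the total target count 1.35-fold higher (exact permutation p = 0.00952, adjusted p = 0.019) and the geometric mean of the 6 positive control probes, which do not come from tissue, 1.24-fold higher (exact permutation p = 0.0238, adjusted p = 0.0317), the last with p = 0.0595 without T1 pool 1/5, 3/4 or 8/9. Each gene called between T1 and T3 in HOM midbrain with all pools and all 3 reference genes is therefore given with its value without B2m. Calls in subsets of the pools are not all given in that way. The shift against which the negative values stand is 0.14 on the log2 scale.

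At T3, 7 of the 43 probes had fallen and none had risen (16.3% of the probes tested were called). They were Jak2, Lepr and Ptp1b of the leptin pathway, the phosphoinositide 3-kinase subunits Pik3ca and Pik3r1, the receptor partner Ramp3 and the histone deacetylase Hdac5. All 7 changes were small, leaving 78.1 to 86.1% of the T1 level, and no called gene passed a log2 fold-change of 0.58. Unadjusted p was under 0.05 for 16 probes. With B2m left out of the divisor, 2 probes were called (4.65%), Jak2 lower and Akt1 higher; without either of the other reference genes the calls numbered 13 and 17. Leaving out a pool gave 4 to 13 calls, with 4 without T1 pool 3/4 or 6/7, 12 without T3 pool 6 and 13 without T3 pool 10. The direction of the calls rested on the scaling: 2 of 5 calls were higher with TMM and also with median-ratio size factors, which set the bulk of the targets equal between groups, and 5 of 5 were higher when the positive controls were the divisor. With 3 reference genes the T1 and T3 pools did not overlap for 7 probes (also 16.3%), 6 lower and 1 higher at T3. This too rested on B2m. Without it, Jak2 and Pik3r1 stayed lower without overlap, while Lepr, Pik3ca, Pde3b and Adrbk1 overlapped. Agrp, the 1 higher probe, stayed apart, and Akt1 was then also higher without overlap.

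**Figure D2:**
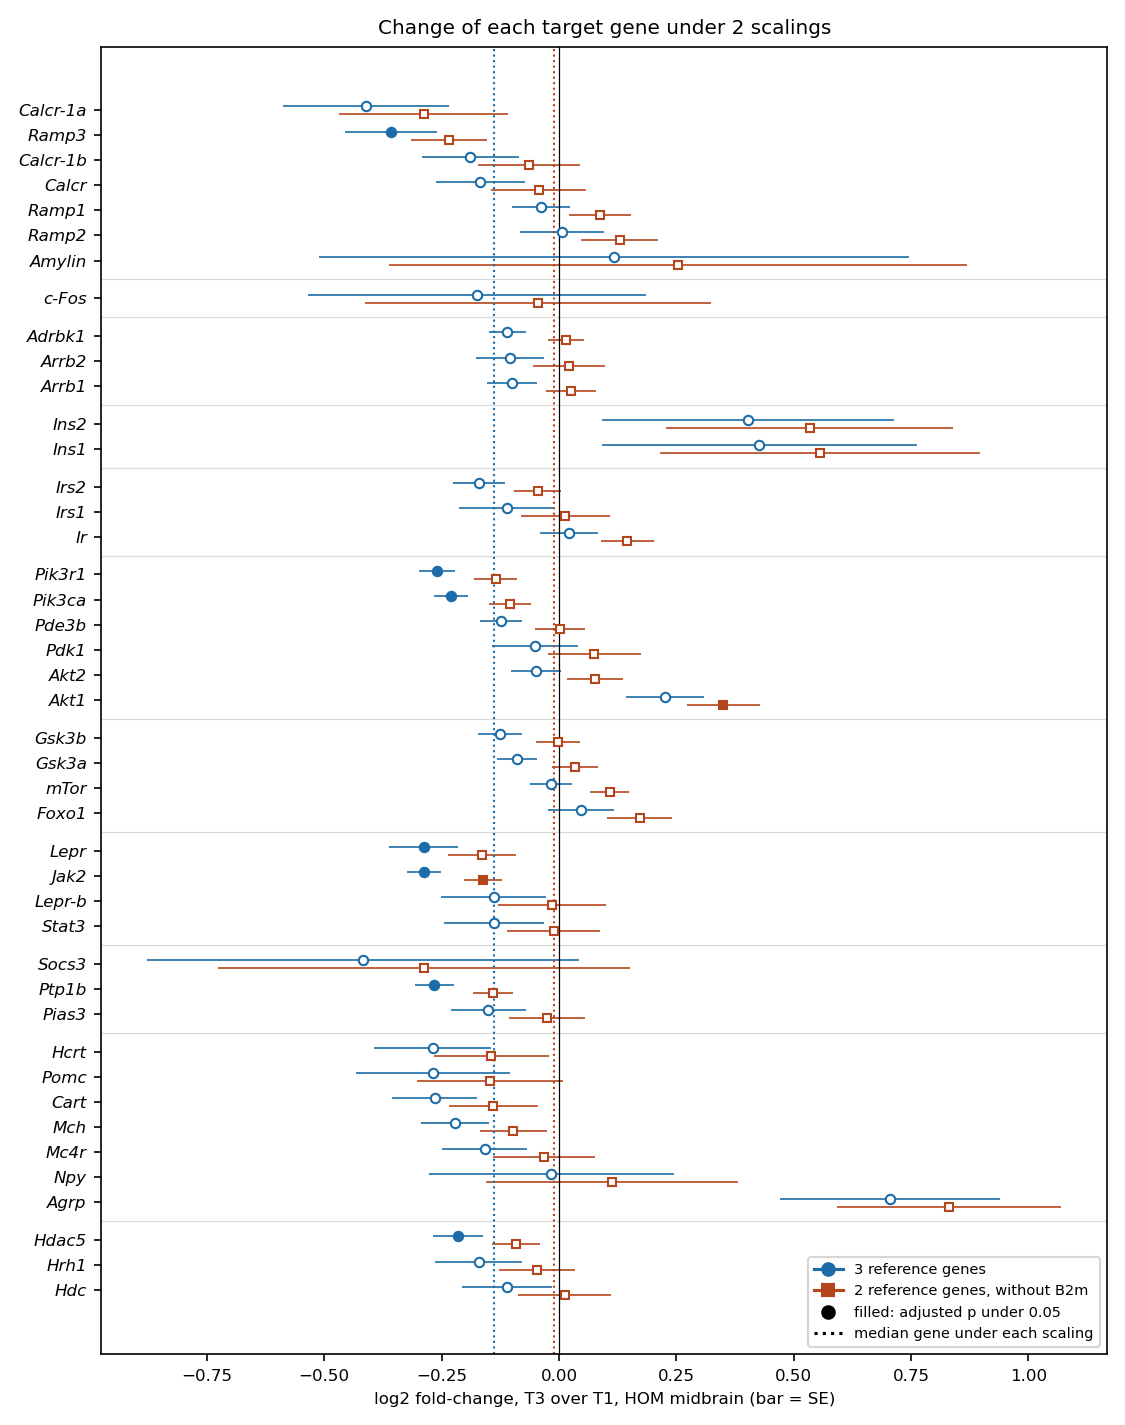
Log2 fold-change from T1 to T3 in HOM midbrain for each of the 43 target probes, grouped by role (horizontal axis, log2; bars are SE). Circles use 3 reference genes and squares leave out B2m; filled symbols have an adjusted p under 0.05, and dotted lines mark the median probe at -0.14 and -0.01.

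Jak2, the kinase bound to the leptin receptor, gave the lowest p. Its normalised counts were 16315 and 16536 in the T1 AM pools and 15509 and 15683 in the T1 PM pools; at T3 they ran from 12350 to 14201 with a median of 13704. Every T3 pool was below every T1 pool. The log2 fold-change was -0.29 ± 0.04 (SE; edgeR quasi-likelihood test, adjusted p = 0.000457), that is 81.9% of T1. It was -0.16 without B2m (adjusted p = 0.0458), and it was called in 18 of 20 alternative settings and negative in 19, the exception being positive control scaling (0.04). Leaving out any of the 10 pools kept the call, as it did for Ptp1b, Pik3ca and Pik3r1.

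Lepr, measured by a probe to the receptor gene, stood at 1900, 1897, 1795 and 2139 at T1 and at 1476 to 1739 (median 1571) at T3, again without overlap. Scaled without B2m, the Lepr pools overlapped slightly, with T3 pool 2/7 at 1732 and T1 pool 1/5 at 1719. The log2 fold-change was -0.29 ± 0.07 (SE; edgeR quasi-likelihood test, adjusted p = 0.0198), and -0.16 without B2m (adjusted p = 0.176). The call was lost without T1 pool 3/4, without T1 pool 6/7 and without T3 pool 1/5, where adjusted p reached 0.106. The probe for the signalling form, Lepr-b, was not called, at -0.14 ± 0.11 (adjusted p = 0.343). Both are probes to 1 gene. Stat3, which Jak2 activates, was not called either (-0.14 ± 0.11, adjusted p = 0.343).

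Ptp1b, the phosphatase that acts on Jak2 and on the insulin receptor, was called at -0.27 ± 0.04 (SE; edgeR quasi-likelihood test, adjusted p = 0.000879). Its T1 values were 6294 and 6602 in AM and 5850 and 5463 in PM pools, and its T3 values 4758 to 5502 with a median of 5285, so the time points overlapped slightly. Without B2m it was at -0.14 (adjusted p = 0.0751). Pias3, an inhibitor of Stat3, was not called (-0.15 ± 0.08, adjusted p = 0.19).

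Pik3ca encodes the catalytic and Pik3r1 the regulatory subunit of phosphoinositide 3-kinase. Pik3ca was at 17509, 18373, 16742 and 17764 in the T1 pools and between 14323 and 15872 (median 15421) at T3. Its log2 fold-change was -0.23 ± 0.04 (SE; edgeR quasi-likelihood test, adjusted p = 0.000879). Pik3r1 went from 7652, 7125, 6930 and 7242 to between 5845 and 6482 (median 6131), a log2 fold-change of -0.26 ± 0.04 (adjusted p = 0.000879). Neither gene had a T3 pool within the T1 range on this scale. Scaled without B2m, Pik3r1 still had none, but Pik3ca overlapped, with T3 pool 3/4 at 16340 and T1 pool 1/5 at 16032. Without B2m the values were -0.11 (adjusted p = 0.165) and -0.13 (adjusted p = 0.109). Pde3b, a phosphodiesterase that Akt activates, also had no overlap with B2m in the divisor, but was not called (-0.12 ± 0.04, adjusted p = 0.0614).

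Akt1, a kinase at the centre of this arm, was the one of its 6 probes with a positive value. It was at 9367 and 9553 in the T1 AM pools and 8718 and 9563 in the T1 PM pools. The T3 AM pools ran from 10760 to 12889, all above T1, while the T3 PM pool was at 8845 with 3 reference genes. Scaled without B2m, that PM pool was at 9859, above all T1 pools, which ran from 8348 to 9399. The log2 fold-change was 0.23 ± 0.08 with 3 reference genes (adjusted p = 0.0629) and 0.35 without B2m, where it was called (edgeR quasi-likelihood test, adjusted p = 0.0432). Among AM pools alone it was 0.35 with 3 reference genes (adjusted p = 0.00558), and in PM pools, with 1 pool at T3 and the spread of all midbrain pools, it was -0.05 and not called. Of the 6 probes listed under PI3K and Akt, 2 fell, none rose and 4 were not called (16.3% of all 43 probes fell), with a median of -0.09 against -0.14 for all probes; Akt2 was at -0.05 ± 0.05. Pdk1 (-0.05 ± 0.09) is counted here as the study lists it, but the accession of its probe is that of pyruvate dehydrogenase kinase 1, not of the phosphoinositide-dependent kinase.

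Of the 4 probes below Akt (Gsk3a, Gsk3b, Foxo1 and mTor) none was called, which with 16.3% called over all probes is no result about so few; they ranged from -0.13 for Gsk3b, the glycogen synthase kinase, to 0.05 for Foxo1, a transcription factor that Akt keeps out of the nucleus, and mTor was nearest 0 at -0.02 ± 0.04. The insulin receptor Ir was at 0.02 ± 0.06, and its substrates Irs1 and Irs2 were at -0.11 ± 0.10 and -0.17 ± 0.05 (adjusted p = 0.402 and 0.0551). None of the 3 was called, which again is no result about so few. The insulin transcripts were at the limit of detection, and Ins1 was at or under background in 7 of the 10 pools and Ins2 in 3; their log2 fold-changes of 0.43 ± 0.34 and 0.40 ± 0.31 were not called (adjusted p = 0.343 for each).

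**Figure D3:**
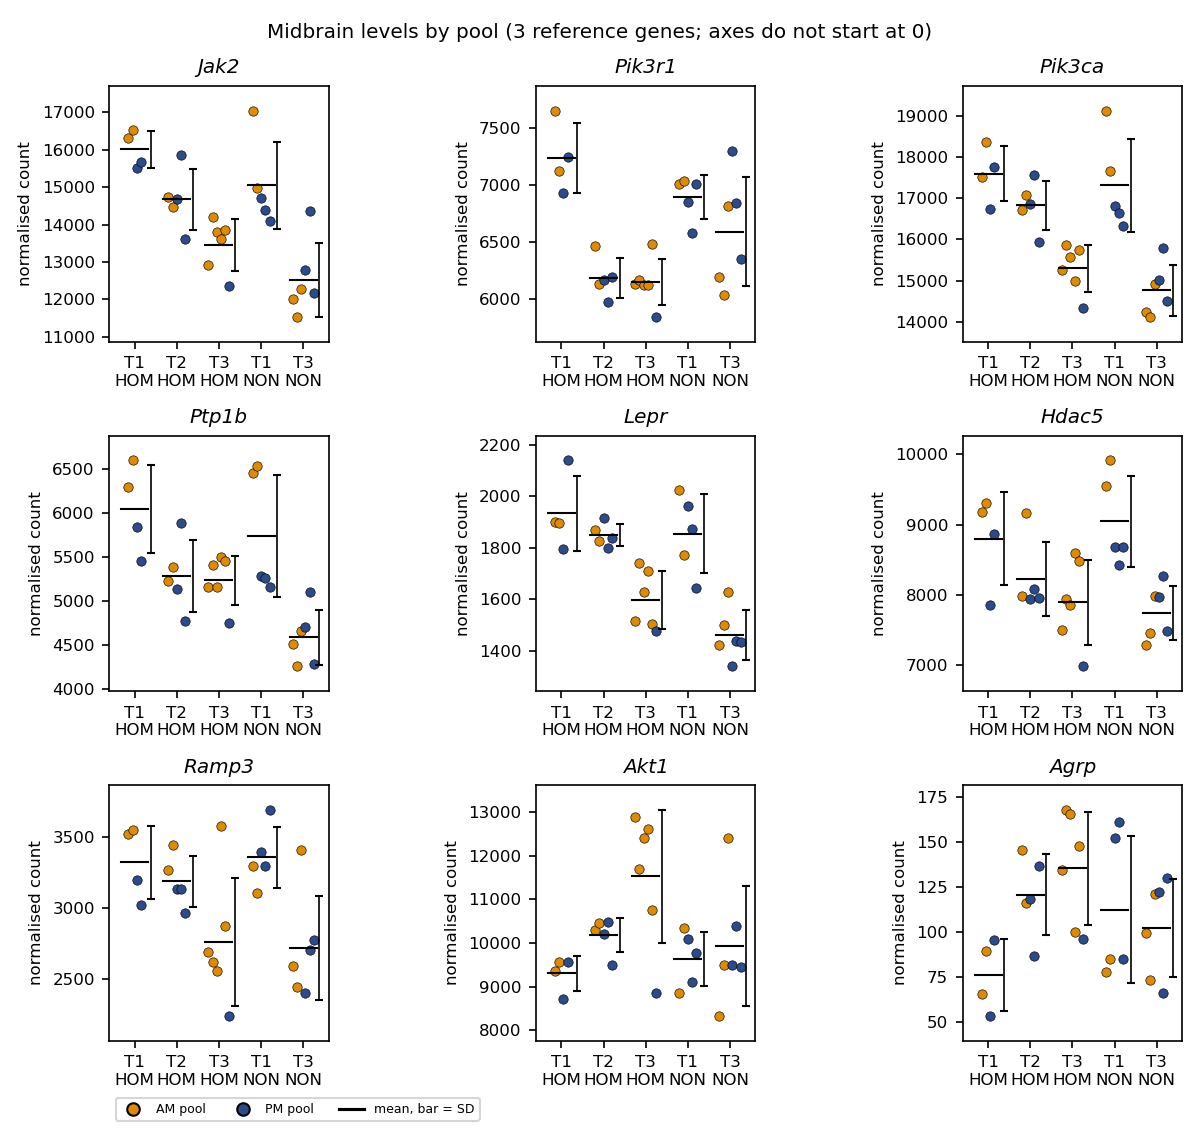
Normalised counts (3 reference genes) of the 7 called genes, Akt1 and Agrp in each midbrain pool of HOM mice at T1, T2 and T3 and of NON mice at T1 and T3. Points are pools coloured by time of collection, lines are means and bars SD; vertical axes do not start at 0. Jak2 lies between 12350 and 14201 at T3 in HOM, under all 4 T1 pools.

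Ramp3, which turns the calcitonin receptor into an amylin receptor, was the one called probe of the 7 on amylin and its receptors, a share close to the 16.3% called over all probes. It was at 3522, 3551, 3196 and 3020 at T1 and from 2242 to 3577 (median 2657) at T3, a log2 fold-change of -0.36 ± 0.10 (SE; edgeR quasi-likelihood test, adjusted p = 0.0265). The T3 maximum of 3577 was pool 6, the pool of a mouse that had not been diabetic, and the other 5 T3 pools, at 2242 to 2873, lay under all T1 pools; previous diabetes was not tested on its own. The call was lost without T1 pool 3/4, T1 pool 6/7, T3 pool 1/5 or T3 pool 2/7, and without B2m the value was -0.23 (adjusted p = 0.109). Ramp1 and Ramp2 were at -0.04 ± 0.06 and 0.01 ± 0.09 and were not called.

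The calcitonin receptor probes were not called either. Calcr pools overlapped between the time points, with 861 ± 103 (SD, n = 4) at T1 and 788 ± 74.7 (SD, n = 6) at T3, and its log2 fold-change was -0.17 ± 0.09 (adjusted p = 0.197). Calcr-1a gave the largest difference of the group, -0.41 ± 0.18 (adjusted p = 0.112), and Calcr-1b was at -0.19 ± 0.10. The 3 are probes to 1 gene. Amylin transcript was at or under background in 6 of 10 pools, at 11.6, 20.0, 72.5 and 18.9 normalised counts in the T1 pools and 13.0 to 60.5 at T3 (0.12 ± 0.63, adjusted p = 0.898). The probe was designed to the mouse gene, and whether it also binds the transgene transcript was not tested.

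c-Fos, the immediate early gene used as a marker of neuronal activation, varied from pool to pool at both ages, from 2284 to 5932 at T1 and from 1724 to 5100 at T3. The difference of -0.17 ± 0.36 was within that spread (adjusted p = 0.725). Adrbk1, Arrb1 and Arrb2, the receptor kinase and arrestins that desensitise receptors, lay between -0.11 and -0.10, close to the median probe. None was called, which with 16.3% called over all probes is no result about so few. The T1 and T3 pools of Adrbk1 did not overlap with B2m in the divisor, as was the case for 16.3% of all probes, but overlapped without it. Hdac5, a repressor of transcription in the histone deacetylase family, was called (-0.22 ± 0.05; edgeR quasi-likelihood test, adjusted p = 0.0197) and was at 9174, 9309, 7852 and 8872 at T1 and 6985 to 8600 (median 7899) at T3. Its call was lost without T1 pool 3/4, T1 pool 6/7 or T3 pool 1/5 and without B2m (-0.09, adjusted p = 0.36). Hrh1, a histamine receptor, and Hdc were not called, the latter at -0.11 ± 0.10.

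None of the 7 appetite genes was called at T3 (median -0.22), and 6 of the 7 values were negative, against 16.3% called and 35 of 43 negative over all probes, so neither count sets the group apart. Agrp, the orexigenic peptide that blocks melanocortin receptors, was at 65.3 and 89.5 in the T1 AM pools, 53.4 and 95.7 in the T1 PM pools, and 96.3 to 168 (median 141) at T3. The time points did not overlap, although the highest T1 and the lowest T3 pool were almost level. The log2 fold-change of 0.71 ± 0.23 was the largest of the 43 and just missed the threshold (adjusted p = 0.0551); it was 0.83 without B2m (adjusted p = 0.0751), and among AM pools it was called at 0.87 (edgeR quasi-likelihood test, adjusted p = 0.0307), while in PM pools, with 1 pool at T3 and the spread of all midbrain pools, it was 0.36 and not called. It was called higher in 14 of 20 alternative settings, TMM, DESeq2 and positive control scaling among them, and in 2 of the 10 fits that left out a pool, and its value was positive in all of these; previously diabetic pools alone and leaving out T3 pool 6 are 1 fit, counted in both. These are low counts, of 42 to 208 per pool. Npy, another orexigenic peptide, gave the smallest difference of the 7, -0.02 ± 0.26 (adjusted p = 0.951). Which cells of the block its transcript came from was not measured.

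On the anorexigenic side, Pomc was at -0.27 ± 0.16 (adjusted p = 0.228) and Cart at -0.26 ± 0.09 (adjusted p = 0.0554). For both, time of collection separated the HOM pools at each age. Pomc was at 371 and 361 in the T1 AM pools and at 207 and 229 in the T1 PM pools; at T3 the AM pools ran from 265 to 416 and the PM pool was at 136. Cart was at 5821 and 6460 against 3268 and 3827 at T1, and at 4178 to 5483 against 3060 at T3. Pomc was at -0.10 in AM pools alone and also in the fit without T3 pool 1/5, the PM pool (adjusted p = 0.753 and 0.768), so the size of its adjusted value rests on that pool. Since the T1 group held as many PM as AM pools and the T3 group 1 PM pool, the plain means of Pomc (292 at T1, 309 at T3) run opposite to the adjusted value. Mch (-0.22 ± 0.07, adjusted p = 0.0551), Hcrt (-0.27 ± 0.12, adjusted p = 0.139) and the melanocortin receptor Mc4r (-0.16 ± 0.09, adjusted p = 0.199) were also not called. Mc4r was called lower among AM pools (-0.31; edgeR quasi-likelihood test, adjusted p = 0.0307) and without T3 pool 1/5 (-0.31, adjusted p = 0.0195). In PM pools, with 1 pool at T3, it was 0.16. Without B2m, Mc4r was at -0.03 over all pools (same test, adjusted p = 0.943) and was not called among AM pools.

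**Figure D4:**
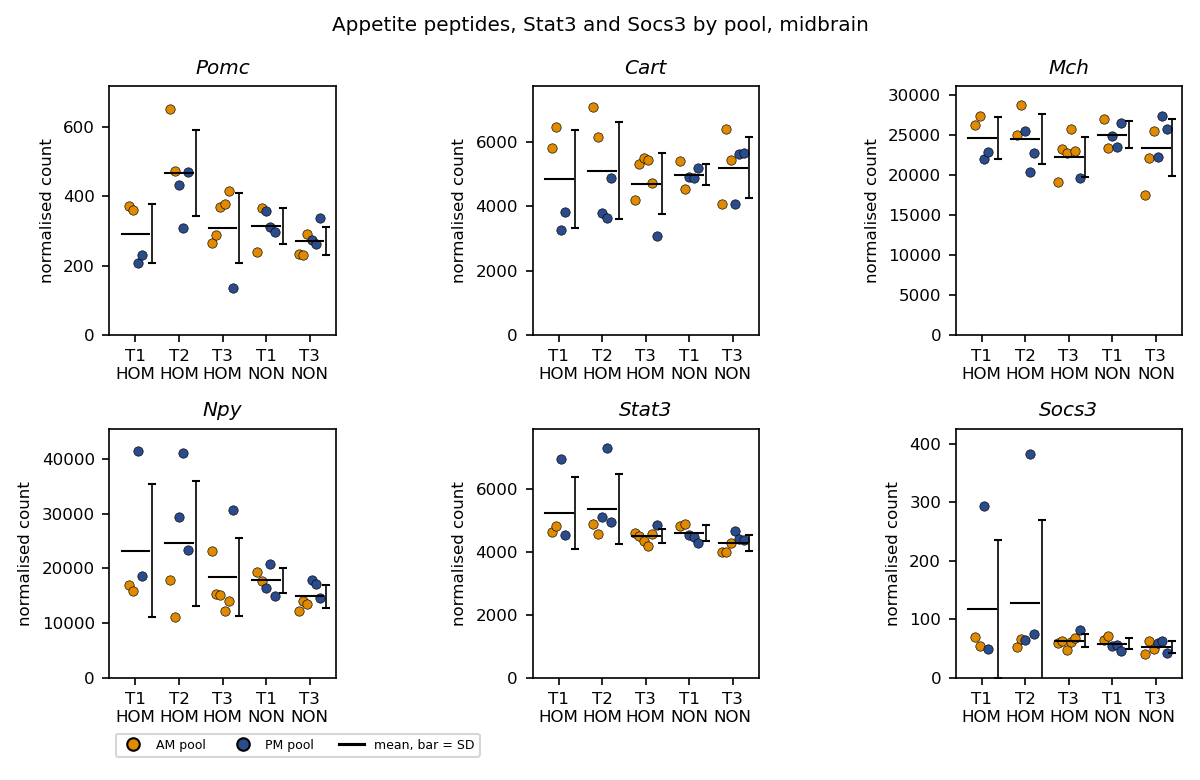
Normalised counts of Pomc, Cart, Mch, Npy, Stat3 and Socs3 in each midbrain pool of HOM mice at T1, T2 and T3 and of NON mice at T1 and T3. Points are pools coloured by time of collection, lines are means and bars SD; in HOM, the PM pools of Pomc and Cart lie under the AM pools at T1 and T3, and single PM pools at T1 (294) and T2 (382) stand apart for Socs3, whose SD bars at T1 and T2 are cut at 0.

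Socs3, the feedback inhibitor of leptin signalling, had a narrow range at T3 and 1 high pool at T1. It was at 69.7, 54.8 and 49.6 in T1 pools 3/4, 6/7 and 8/9 but at 294 in PM pool 1/5, and at 47.8 to 81.6 (median 61.8) at T3. The same T1 pool was the highest of its group for Npy (41442, against 15875 to 18660 in the other 3) and Stat3 (6961, against 4536 to 4810), and the lowest for Lepr-b (178). At T2, PM pool 6/9 showed the same combination, with Npy at 41054, Stat3 at 7303 and Socs3 at 382. The T3 PM pool, 1/5, was the highest of its group in all 3 genes too, with Npy at 30649, Stat3 at 4846 and Socs3 at 81.6. The log2 fold-change of Socs3 was -0.42 ± 0.46 (adjusted p = 0.486). Stat3 is known to bind the Socs3 promoter, and the 250 bases before the start of Socs3 in RefSeq (GRCm38.p6, chr11:117969367-117969616, - strand, written 5′ to 3′) hold 1 match to the STAT motif TTCNNNGAA, in capitals, which begins 154 bases before the start.
Socs3: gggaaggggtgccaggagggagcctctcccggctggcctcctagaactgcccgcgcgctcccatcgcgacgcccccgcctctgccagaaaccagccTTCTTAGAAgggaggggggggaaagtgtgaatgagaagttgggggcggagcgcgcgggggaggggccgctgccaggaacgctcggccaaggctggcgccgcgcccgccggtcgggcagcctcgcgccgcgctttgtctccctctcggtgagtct
The motif, which reads the same on either strand, is present in 7.02% of mouse promoters of that length. As for B2m, the match describes the sequence only. No binding was measured, and a link between this motif and the pools high in both Stat3 and Socs3 was not tested.

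Time of collection was then held fixed. AM pools alone, 2 against 5, gave 7 calls, Jak2, Ptp1b, Pik3ca, Pik3r1 and Mc4r lower and Akt1 and Agrp higher. Without B2m, in a fit chosen after seeing the data, AM pools gave 3 calls, Akt1 and Agrp higher and Ptp1b lower. Jak2, Pik3ca, Pik3r1 and Mc4r were then not called. For PM pools, 2 against 1, the spread was taken from a model of all midbrain pools, since the lone T3 pool has none of its own and is only assumed to vary as the others do. The values were -0.34 for Jak2, -0.27 for Pik3ca, -0.28 for Pik3r1 and -0.41 for Lepr, which on that assumption were among 6 probes called, all lower; they rest on 1 T3 pool. The T3 pool concerned is the one with the highest B2m ratio. In the previously diabetic T3 pools alone, which is the same fit as that without T3 pool 6, 12 probes were called, 11 lower and Agrp higher.

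The same comparison was made in NON mice, some of whose T3 pools were also labelled as previously diabetic. Age and past diabetes are not separated in it either. In NON midbrain 21 of the 43 probes fell between T1 and T3 (48.8%) and none rose, with a median of -0.19. Of the 7 genes called in HOM mice, 6 were called in NON too: Jak2 at -0.26 ± 0.07 (edgeR quasi-likelihood test, adjusted p = 0.0093), Lepr at -0.35 ± 0.06 (adjusted p = 0.00298), Ptp1b at -0.33 ± 0.07 (adjusted p = 0.00722), Pik3ca at -0.23 ± 0.05 (adjusted p = 0.00722), Hdac5 at -0.23 ± 0.06 (adjusted p = 0.0093) and Ramp3 at -0.30 ± 0.09 (adjusted p = 0.0126). These calls also rested on B2m: without it, or with TMM, 1 probe was called in NON, and that was Ramp1, higher; without B2m the 6 genes lay between -0.22 (Lepr) and -0.09 (Hdac5 and Pik3ca). The pools of NON and HOM mice are separate, so these are 2 sets of animals.

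The difference between genotypes was tested directly, and no probe was called (0%; edgeR quasi-likelihood test, smallest adjusted p = 0.152), with 5 probes at an unadjusted p under 0.05. The change of Jak2 in HOM less that in NON was -0.02 (95% interval -0.20 to 0.15), that of Pik3ca 0.00 (-0.14 to 0.14), that of Lepr 0.07 (-0.14 to 0.27) and that of Ptp1b 0.06 (-0.14 to 0.26). The lowest p belonged to Pik3r1, at -0.20 (-0.34 to -0.05, adjusted p = 0.152), which was -0.06 ± 0.05 in NON, to Ir, at 0.22 (0.06 to 0.39), and to mTor, at 0.22 (0.05 to 0.38). Ir and mTor were called lower in NON (-0.20 and -0.23). With TMM in place of the reference genes, Pik3r1 was the 1 probe called, and with the positive controls 17 were called, the change being higher in HOM for all 17. For Agrp the difference was 0.78 (0.04 to 1.53, adjusted p = 0.38).

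**Figure D5:**
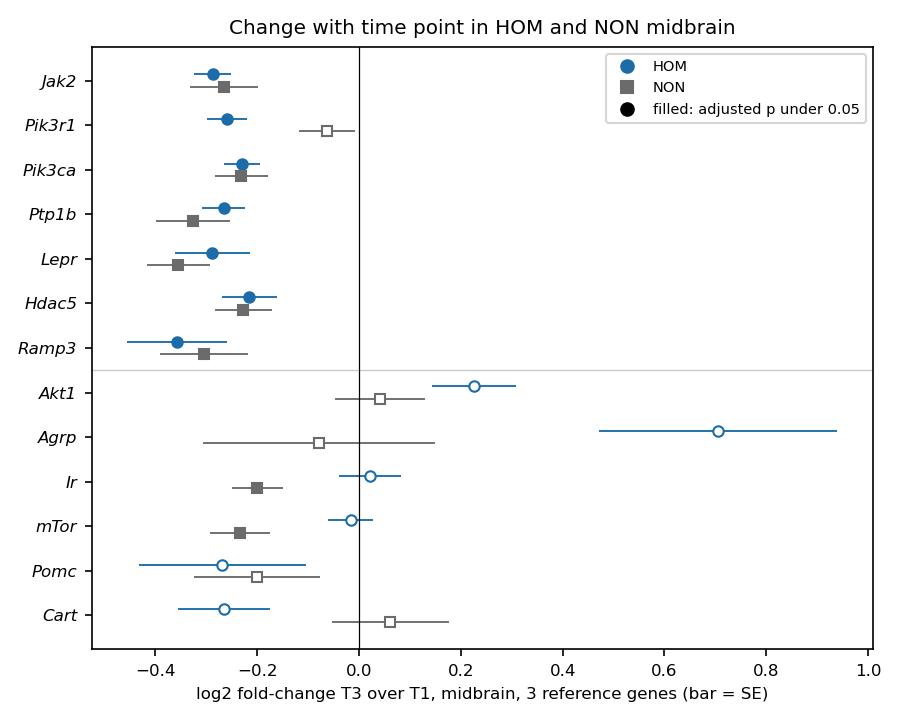
Log2 fold-change from T1 to T3 in HOM (circles) and NON (squares) midbrain for the 7 genes called in HOM (above the line) and for 6 others (horizontal axis, log2, 3 reference genes; bars are SE; filled symbols have an adjusted p under 0.05). Jak2 is at -0.29 and -0.26, while Pik3r1 is at -0.26 in HOM and -0.06 in NON.

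Onset of diabetes (T2) lay between the 2 ages. In a fit of all 15 HOM midbrain pools, 2 probes differed between T2 and T1 (4.65%). Pik3r1 had already fallen, by 0.22 on the log2 scale (edgeR quasi-likelihood test, adjusted p = 0.0014), and differed by -0.04 ± 0.04 from T2 to T3 (adjusted p = 0.535). Without B2m its value at T2 against T1 was -0.21 and still called. With the positive controls as divisor it was 0.05 and not called, and 15 probes were called, all higher. Leaving out a pool gave 1 to 6 calls for T2 against T1. Pomc had risen by 0.79 ± 0.18 (adjusted p = 0.0147) and fell by 0.97 on the log2 scale from T2 to T3 (adjusted p = 0.00302), and the T3 pools, at 136 to 416, spanned the T1 range of 207 to 371. The rise of Pomc lost its call without T1 pool 1/5 (0.77, adjusted p = 0.0559), without T1 pool 6/7 (0.78, adjusted p = 0.0559) and with no collection term (0.68, adjusted p = 0.236), and the fall to T3 lost its call with no collection term (-0.60, adjusted p = 0.207). Between T2 and T3, 8 probes fell and none rose (18.6%): Pomc, Cart (-0.42 ± 0.10), Pik3ca (-0.16 ± 0.04), Ramp3 (-0.30 ± 0.08), Lepr (-0.22 ± 0.06), Jak2 (-0.15 ± 0.04), Mch (-0.24 ± 0.07) and Irs2 (-0.16 ± 0.05). Without B2m, Pomc alone of these 8 was called, at -0.87, and Akt2 was called higher; Cart was at -0.31 (adjusted p = 0.0526), Ramp3 at -0.19 (adjusted p = 0.078), Mch at -0.13 and Lepr at -0.11, and Jak2, Pik3ca and Irs2 lay between -0.05 and -0.04. Agrp was 0.68 ± 0.22 higher at T2 than at T1 (adjusted p = 0.0859) and 0.05 ± 0.20 from T2 to T3. The contrasts share pools, and T2 pools spanned 100 to 246 days of age.

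The change with time in midbrain was last compared with that in the cortices of HOM mice, with pools of the same number as a block. The T3 PM pool of the right cortex is labelled as mouse 1 alone and was placed in the block of midbrain pool 1/5, and the left cortex pool 1/5 at T3 differs from the midbrain pool of that number in 1 of its labelled ages; without midbrain pool 1/5 at T3, 17 (left) and 19 (right) probes were called. It differed from the left cortex for 20 probes (46.5%) and from the right cortex for 22 (51.2%). Without the block these counts were 13 and 17. Npy, Stat3, Arrb1 and Arrb2 then lost their call against both cortices. Irs2, Hdac5 and Socs3 lost it against the left cortex, and Mc4r against the right. Jak2 changed by -1.30 ± 0.06 (left) and -1.28 ± 0.06 (right) in the cortices, and the midbrain change was higher by 1.01 ± 0.06 (edgeR quasi-likelihood test, adjusted p = 4.06e-07) and 1.00 ± 0.06 (adjusted p = 3.09e-08). Lepr-b, at -2.23 ± 0.15 and -2.08 ± 0.17 in the cortices, differed by 2.09 ± 0.18 and 1.94 ± 0.19. Ir differed by 0.72 ± 0.08 and 0.79 ± 0.09. Agrp was called in both, but at T3 its counts were at or under background in 4 of 6 left and 5 of 6 right cortex pools, so that the size of its change in cortex was not measured. Ramp1 went the other way, by -0.44 ± 0.08 and -0.76 ± 0.10, being higher at T3 in the cortices. Library yield moved with time point in opposite ways: the median target total of HOM pools was 396078 at T1 and 200663 at T3 for the left cortex, 443450 and 164744 for the right, and 211042 and 285878 for midbrain, and the part of this in the differences was not tested. The direction rested on the scaling: 17 of 20 and 18 of 22 calls were higher in midbrain with the reference genes, 8 of 16 and 10 of 19 with TMM, and all 40 and 43 with the positive controls, where Ramp1 changed sign. Without B2m, 23 of 24 and 20 of 22 were higher; of the genes lower in midbrain, Hdac5 (-0.09) and Pik3r1 (-0.15) were then not called against the left cortex nor Adrbk1 (-0.21) and Akt1 (-0.23) against the right, while Ramp1 was called against both (-0.28 and -0.69) and Hdac5 against the right (-0.33).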

How the data were processed

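RNA counts of 43 target genes, 3 reference genes, 6 positive and 8 negative control probes in 192 pools were deposited by the authors as raw nCounter counts, not normalised; the authors' own tests used a count model with reference gene normalisation and are not used here. All columns matched a sample label, and 0 columns of per-sample values were left over. Groups, time of collection and ages came from the labels. Each target count was divided by the geometric mean of the 3 reference genes. T1 (4) and T3 (6) HOM midbrain pools were compared with edgeR 4.0.16 (quasi-likelihood test, robust, library size set by the reference genes) in R 4.3.3, with time of collection as a term; T3-T1 in HOM was compared with T3-T1 in NON and, with the pool as a block, in each cortex. SE is the log2 fold-change over the root of F, and 95% intervals use the residual degrees of freedom. Pools come from separate mice; their number limits the precision, and no pair of pools agreed within counting noise (21 pairs, lowest chi-square per degree of freedom 6.78). Alternatives were TMM, median-ratio and positive control scaling, each reference gene left out, DESeq2 1.42.0, limma 3.58.1, edgeR's likelihood-ratio test, background subtraction, a filter on low counts, other models of collection time and each pool left out; scaling without B2m outside the main comparison, and within AM pools, was chosen after seeing the data, as were TMM and leaving out each pool for T3 against T1 in NON, leaving out NON pools for the difference from HOM, and AM pools alone for yields and the B2m ratio. The fit was also run on simulated data, but the outcome is not reported here and no error rate is claimed from it. Probe accessions were matched to RefSeq (GRCm38.p6; 43 of 43 probes, 40 genes).

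The genes named were those called in the main comparison or in a difference from NON or a cortex, the members with the largest and smallest change of each gene group, and a preset list (Amylin, Calcr, c-Fos, Ins1, Pomc, Cart, Npy and Socs3); a few others were added after their values were seen. The members and lists were chosen with earlier results of these data known. A reference gene other than B2m is part of the divisor but is not reported by name.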

Additional observations from a re-analysis of the deposited data

Results flagged for a closer look

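In 8 of the 43 probes at T1 and 1 of 43 at T3, a single HOM midbrain pool stood apart from the rest of its group by Dixon's criterion, which flags about 1 in 20 groups by chance. PM pool 1/5 at T1 held 5 of these values: it was highest for Npy (41442 normalised counts), Stat3 (6961), Socs3 (294) and Amylin (72.5) and lowest for Lepr-b (178). AM pool 3/4 at T1 was highest for Akt2 (1406) and Pde3b (2454), and PM pool 8/9 was lowest for Hrh1 (1006). At T3, AM pool 2/7 was highest for Calcr (930.2).

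The change from T1 to T3 differed between midbrain and cortex by the edgeR test of the difference (values are the midbrain change less the cortex change, log2). Against the left cortex, the leptin genes gave 2.09 for Lepr-b, 1.14 for Lepr, 1.01 for Jak2, 0.36 for Stat3, 0.60 for Socs3 and 0.56 for Ptp1b. Among fits that left out a pool, Socs3 was called only in those without T1 pool 3/4, T3 pool 3/4 or T3 pool 8/9. Some other calls against this cortex, such as Arrb1, were also lost in some of these fits. The insulin pathway gave 0.72 for Ir, 0.35 for Irs2, 0.58 for Pik3ca, -0.31 for Pik3r1, 0.71 for Pde3b, 0.27 for Gsk3b and 0.42 for mTor, and Pdk1 gave 0.58. The rest were Agrp at 1.20 (at or under background in 4 of 6 cortex pools at T3, so not a measured size), Npy at 0.47, Arrb1 at 0.16, Arrb2 at 0.29, Hdac5 at -0.25 and Ramp1 at -0.44.

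Against the right cortex, the leptin genes gave 1.94 for Lepr-b, 1.23 for Lepr, 1.00 for Jak2, 0.42 for Stat3, 0.34 for Pias3 and 0.47 for Ptp1b. The insulin pathway gave 0.79 for Ir, 0.42 for Pik3ca, -0.30 for Akt1, 0.67 for Pde3b, 0.46 for Foxo1, 0.29 for Gsk3b and 0.30 for mTor, and Pdk1 gave 0.57. The rest were Agrp at 1.24 (at or under background in 5 of 6 cortex pools at T3), Npy at 0.61, Mc4r at 0.46, Arrb1 at 0.15, Arrb2 at 0.24, Adrbk1 at -0.28, Hdac5 at -0.40 and Ramp1 at -0.76. Without B2m in the divisor, Hdac5 and Pik3r1 were not called against the left cortex nor Adrbk1 and Akt1 against the right. Target totals fell with time in both cortices and rose in midbrain, and the part of this in these differences was not tested.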

How the results depend on the processing

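The count of genes called between T1 and T3 in HOM midbrain (7) was 2 without B2m, 13 and 17 without either of the other reference genes in turn, 15 with DESeq2, 12 with previously diabetic T3 pools only (the same fit as without T3 pool 6) and 15 with T3 pools of 2 mice only; 0 passed a log2 fold-change of 0.58 or of 1. With AM pools and no B2m, chosen after seeing the data, it was 3. Leaving out a pool gave 4 to 13 calls (4 without T1 pool 3/4 or 6/7, 12 without T3 pool 6, 13 without T3 pool 10). Under positive control scaling 6 of the 7 called genes turned positive, at 0.10 for Hdac5, 0.035 for Jak2, 0.033 for Lepr, 0.056 for Ptp1b, 0.094 for Pik3ca and 0.061 for Pik3r1, and Ramp3 was at -0.05. Of 1288 alternative values for single genes, in which that repeated fit counts under both names, 1021 kept direction and side of the threshold, 43 lost and 89 gained the call, and 135 changed sign, 6 of them of a called gene and 129 of a gene called in neither fit. The difference between HOM and NON (0 calls) gave 1 with TMM and 17, all higher, with positive controls, and 0 on leaving out any HOM or NON pool. T3 against T1 in NON (21) gave 1 with TMM and 1 without B2m, and 13 to 23 on leaving out a pool (13 without T1 NON pool 2/7 or 8/9); TMM gave 0.063 for Arrb2, 0.0011 for Gsk3b, 0.0037 for Pde3b and 0.012 for Ramp2, and scaling without B2m gave 0.018 for Arrb2. T2 against T1 (2) gave 15 with positive controls, where Pik3r1 was at 0.048, and 1 with no collection term, and 1 to 6 on leaving out a pool (1 without T1 pool 1/5 or 6/7, 4 without T1 pool 8/9, 6 without T2 pool 6/9). T3 against T2 (8) gave 1 with TMM, 2 without B2m, 2 with positive controls and 2 with no collection term, and 5 to 11 on leaving out a pool (5 without T3 pool 1/5 or T2 pool 4/8). Against the left cortex (20), positive controls gave 40 calls and leaving out a pool 16 to 21; TMM gave -0.13 for Arrb1 and -0.017 for Gsk3b, and positive controls 1.20 for Hdac5, 1.15 for Pik3r1 and 1.02 for Ramp1. Against the right cortex (22), positive controls gave 43 calls and leaving out a pool 18 to 25; TMM gave -0.10 for Arrb1 and -0.012 for Arrb2, and positive controls 1.51 for Adrbk1, 1.48 for Akt1, 1.38 for Hdac5 and 1.02 for Ramp1. In AM pools alone the log2 difference was 0.43 in total target count (exact permutation p = 0.0952) and 0.27 in positive controls (exact permutation p = 0.19). Leaving out a pool gave 0.24 to 0.43 for positive controls and 0.21 to 0.33 for the B2m ratio. The cause of these changes was not tested.

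Without the pool as a replicate block, 13 probes differed from the left cortex and 17 from the right cortex. T1 and T3 pools that share a number came from different mice, and their deviations correlated at -0.40, 0.09 and 0.16; with that number as a block, 9 probes were called, all lower, on 1 residual degree of freedom.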
